A study of Mus musculus with 5 samples.

Results

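Chemokines are small secreted proteins that attract cells along their gradients, and they are read by G protein-coupled receptors on the target cell. The genes described here are the chemokines and chemokine receptors on arrays of the newborn dorsal lateral geniculate nucleus (dLGN), a relay nucleus of the thalamus between retina and visual cortex. They were chosen by name, as every probe set whose platform gene symbol begins with Ccl, Cxcl, Ccr or Cxcr and a digit, or is Cx3cl1, Xcl1 or Xcr1, while the fractalkine receptor gene Cx3cr1 was not counted among them. This gave 80 of 45101 probe sets, of which 76 named 1 gene each (49 genes in all) and 4 named several near-identical genes. The knockout group, 2 arrays, came from homozygous Sema6A-/- pups at postnatal day 0. The control group, 3 arrays, came from Sema6A heterozygous pups of the same age, which still carry 1 intact copy of this semaphorin gene. All mice were kept on a C57BL/6 background. Each array carried a pool of dLGN tissue from pups of 1 genotype and more than 1 litter, so p-values measure the spread between pools, and the labels name neither the design of the mutant allele nor the sex of the pups.

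In the brain, chemokines serve both immune cells and development. Microglia, the resident macrophages of the brain, make several ligands of the CC class, in which the first pair of conserved cysteines are adjacent. Neurons make the CX3C ligand fractalkine (Cx3cl1), which microglia read through Cx3cr1. Cxcl12, a CXC ligand made by meninges and vessels, guides migrating neurons and axons through Cxcr4.

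The comparison asked which of these genes differ in the dLGN when Sema6A is lost. Ccl6, Ccl9 and Ccl3, CC ligands of myeloid cells, read 3.29-fold to 4.58-fold higher in the knockout at their brightest probe sets. Both knockout arrays lay above every control array there. The dimmer probe set of Ccl6 gave 4.88-fold and that of Ccl9 gave 1.47-fold. None of the 80 probe sets passed an adjusted p of 0.05, against 0.0733% of all 45037 probe sets tested. The lowest adjusted p among them belonged to Ccl6 (limma adjusted p = 0.0649). The fractalkine ligand gene Cx3cl1, by contrast, read 1.28-fold lower at its brightest probe set, and nearly all receptor genes lay far below the median level in both groups.

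The values are log2 expression per probe set, so a difference of 1 is a 2-fold change. Tests were made with limma, a linear model that shares the variance estimate across probe sets, with p-values adjusted over all of them. With 2 arrays against 3 an exact permutation test of 1 value could not give a p below 0.1. The array medians lay between 6.39 and 6.42. Sema6a itself read 7.83 ± 0.03 in the 2 knockout arrays and 10.50 ± 0.13 in the 3 control arrays (mean ± SD) at its brightest probe set. All 14 measured markers of thalamic relay neurons reached the median level. The knockout arrays differed from each other more than control arrays did, with an SD of the difference across probe sets of 0.463, against 0.303 to 0.337 for control pairs. Knockout replicate 1 had the higher level of GABAergic and prethalamic markers, with a list median 2.69 above the control mean, against 0.19 in replicate 2. Knockout replicate 2 read 4.10 for Xist, against 10.79 to 11.54 on the other arrays.

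At an unadjusted p under 0.05 there were 11 chemokine and receptor probe sets, against 11.1% of all probe sets, so their share of 13.8% was near the background. Of these 11, 10 were higher in the knockout (12.5% of the 80, against 5.16% of all probe sets) and 1 was lower (1.25%, against 5.99%). Both knockout arrays lay above every control array for 15 of the 80 (18.8%, against 12.9% of all probe sets) and below for 7 (8.75%, against 14.5%). At an adjusted p of 0.10 there were 2 probe sets, both of Ccl6, or 2.5% against 0.351% of all. The median log2 fold change over the 80 was 0.041, beside -0.0071 over all probe sets. The 80 probe sets are not independent, since several genes have more than 1.

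**Figure D1:**
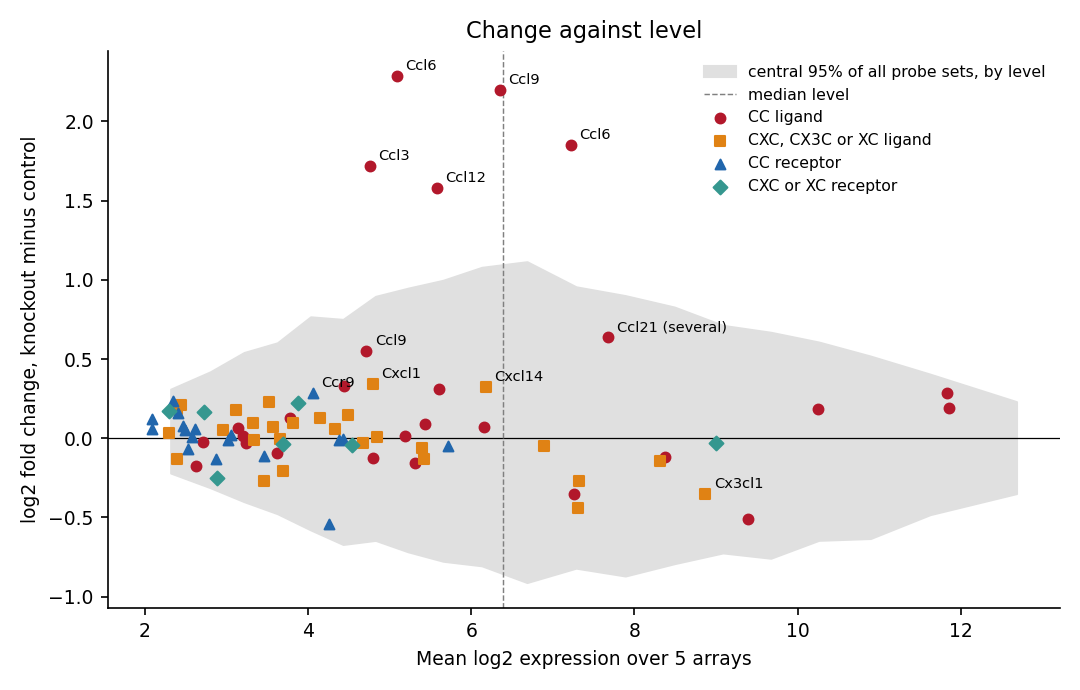
Log2 fold change (knockout minus control, vertical axis) against the mean log2 expression over 5 arrays (horizontal axis) for the 80 chemokine and receptor probe sets, with the central 95% of all probe sets of similar level shaded. The 5 points above the shaded band are Ccl6 (both probe sets), Ccl9, Ccl3 and Ccl12, and 0 points lie below it.

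The upstream sequences of the 4 CC ligand genes with the largest differences, and of Cx3cl1, which differed the other way, are shown because the comparison turns on these genes. Each run is the 250 bases before the annotated transcription start in RefSeq, build GRCm38.p6, 5′ to 3′ on the gene's own strand. Capitals mark matches on either strand to 4 motifs, which are the TATA box (TATAAA), a core of the myeloid factor PU.1 (GAGGAA), a C/EBP form (TTGCNNAA) and a form of the NF-kappaB site (GGG and TTCC with any 3 letters between them).
Ccl6, chr11:83593088-83593337, minus strand: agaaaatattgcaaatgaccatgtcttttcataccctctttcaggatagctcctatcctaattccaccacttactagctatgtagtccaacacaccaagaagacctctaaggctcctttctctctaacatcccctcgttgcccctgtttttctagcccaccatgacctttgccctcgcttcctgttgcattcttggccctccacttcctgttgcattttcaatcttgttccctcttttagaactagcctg
Ccl9, chr11:83578637-83578886, minus strand: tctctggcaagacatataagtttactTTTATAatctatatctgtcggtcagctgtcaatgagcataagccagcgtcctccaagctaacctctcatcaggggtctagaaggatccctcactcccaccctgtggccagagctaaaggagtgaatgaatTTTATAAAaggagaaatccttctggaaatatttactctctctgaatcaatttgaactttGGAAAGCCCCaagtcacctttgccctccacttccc
Ccl3, chr11:83649379-83649628, minus strand: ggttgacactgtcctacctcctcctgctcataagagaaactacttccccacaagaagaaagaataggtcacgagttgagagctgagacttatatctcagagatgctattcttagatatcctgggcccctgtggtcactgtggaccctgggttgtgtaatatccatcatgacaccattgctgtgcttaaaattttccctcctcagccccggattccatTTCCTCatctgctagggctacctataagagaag
Ccl12, chr11:82101595-82101844, plus strand: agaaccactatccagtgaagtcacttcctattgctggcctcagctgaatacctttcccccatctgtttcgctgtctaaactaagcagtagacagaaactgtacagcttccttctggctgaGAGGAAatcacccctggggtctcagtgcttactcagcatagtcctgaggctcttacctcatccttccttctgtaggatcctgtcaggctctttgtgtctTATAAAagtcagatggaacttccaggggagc
Cx3cl1, chr8:94771930-94772179, plus strand: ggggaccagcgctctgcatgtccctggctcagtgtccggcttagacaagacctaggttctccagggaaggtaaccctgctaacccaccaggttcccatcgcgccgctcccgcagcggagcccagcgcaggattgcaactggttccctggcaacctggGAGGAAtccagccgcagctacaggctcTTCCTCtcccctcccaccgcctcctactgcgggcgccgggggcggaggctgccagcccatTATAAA

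These 4 motifs occur, in that order, in 12.4%, 23.3%, 9.56% and 4.65% of the 32851 upstream windows of the same length. Ccl6 held 0 matches. Ccl9 held 3 TATA matches, 2 of which overlap each other on opposite strands, and 1 NF-kappaB match that lies 35 to 26 bases before the start. Ccl3 held 1 PU.1 match at 33 to 28 bases before the start. Ccl12 held a PU.1 match and a TATA match, the TATA match at 31 to 26 bases before the start. Cx3cl1 held 2 PU.1 matches and 1 TATA match. The matches are letters in a window and were not read as binding sites.

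Ccl6 encodes a CC ligand that attracts macrophages in rodents. Its brighter probe set, 1417266_at, read 8.36 and 8.30 in the knockout arrays, against 6.73, 6.20 and 6.52 in the control arrays. The knockout arrays lay close together and 1.58 above the highest control. The log2 fold change was 1.85, or 3.61-fold (SE 0.18, limma unadjusted p = 7.72e-05, adjusted p = 0.0649). The second probe set, 1420249_s_at, read 6.80 and 6.12 in the knockout and 3.98, 4.58 and 3.96 in the control. It gave 2.29, or 4.88-fold (SE 0.29, limma adjusted p = 0.0973). Both probe sets of the gene thus lay higher in each knockout pool than in any control pool. The brighter probe set passed the adjusted threshold where probe sets under the median level were left out before the fit (adjusted p = 0.0337), with an intensity trend (0.0429) and with 1 probe set a gene (0.0327), and its adjusted p ranged up to 0.334 over the alternatives. Ccl6 was also the only one of these 4 CC ligand genes whose mean over the 5 arrays reached the median level of 6.39. In bulk tissue, more cells of 1 type and more RNA per cell cannot be told apart.

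Ccl9, another CC ligand of rodent macrophages, which acts through Ccr1, differed by the largest amount at a single probe set other than that of Ccl6. Probe set 1417936_at read 7.93 and 7.41 in the knockout, against 5.08, 5.36 and 5.97 in the control. The lower knockout array stood 1.43 above the highest control. The log2 fold change was 2.20 (SE 0.31, limma unadjusted p = 0.000526, adjusted p = 0.120). The dimmer probe set of the gene, 1448898_at, read 5.06 and 5.03 in the knockout and 4.34, 4.53 and 4.61 in the control. It went the same way by 0.55 (limma adjusted p = 0.243), a smaller difference on a probe set below the median level in all 5 arrays.

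Ccl3, an inflammatory ligand of Ccr1 that activated microglia release, read 5.61 and 5.98 in the knockout, against 3.89, 3.74 and 4.59 in the control. The groups did not overlap, but every array lay under the median level. The log2 fold change was 1.72 (SE 0.29, limma unadjusted p = 0.00132, adjusted p = 0.149). The annotated span of Ccl3 overlaps that of Ccl4, its close relative, and cross-reading between their probe sets was not tested. The Ccl4 probe set itself read 4.74 and 4.53 in the knockout and 4.21, 4.09 and 4.62 in the control, so the groups overlapped there.

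Ccl12, a mouse monocyte chemoattractant that acts through Ccr2, gave 7.39 for knockout replicate 1 and 5.67 for replicate 2, against 5.54, 4.34 and 4.97 in the control arrays. Only replicate 1 stood clear of the controls, and replicate 2 exceeded the highest control by 0.13. The log2 fold change was 1.58 (SE 0.58, limma unadjusted p = 0.0383, adjusted p = 0.416). Without knockout replicate 1 it was 0.72 (unadjusted p = 0.215), and without replicate 2 it was 2.44. Without control replicate 2 or 3 the unadjusted p was 0.107 or 0.0950. Knockout replicate 1 also had the widest 3′ to 5′ difference for Gapdh, a measure of RNA and label quality, at 2.34, with 0.774 to 1.33 on the control arrays. Its part in the Ccl12 value was not tested.

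**Figure D2:**
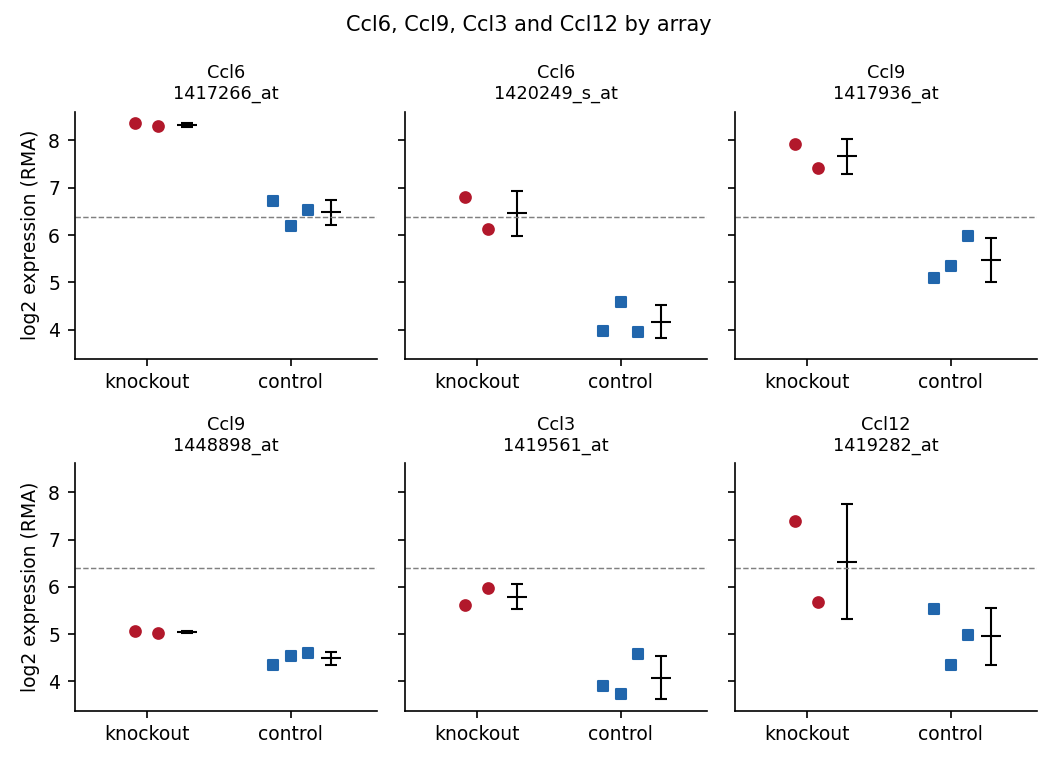
Log2 expression (vertical axis) of the 6 probe sets of Ccl6, Ccl9, Ccl3 and Ccl12 in 2 knockout arrays (red circles) and 3 control arrays (blue squares), with the mean and SD beside each group and the median of all probe sets dashed. In all 6 panels both knockout arrays lie above every control array, and Ccl12 shows the widest spread, at 7.39 and 5.67 in the knockout.

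Neighbouring genes did not all read alike. In the GRCm38.p6 gene order, Ccl5, Ccl9, Ccl6, Ccl3 and Ccl4 follow each other on chromosome 11 with 0 other protein-coding genes between them. Of these 5 genes, 3 had an unadjusted p under 0.05 in limma, against 11.1% of all probe sets. Ccl5, a T cell chemokine, read 3.12 and 3.25 in the knockout, against 3.13, 3.29 and 2.94 in the control, near the floor of the array. The other run, Ccl2, Ccl7, Ccl11, Ccl12, Ccl8 and Ccl1, lies 25 protein-coding genes away on the same chromosome, and only Ccl12 of its 6 genes had an unadjusted p under 0.05. Ccl2, the monocyte chemoattractant that shares the receptor Ccr2 with Ccl12, read 5.08 and 5.32 in the knockout and 5.311, 5.004 and 5.250 in the control. Its log2 fold change was 0.01, with a 95% interval of -0.36 to 0.38.

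Microglia markers read higher in the same arrays as these 4 CC ligand genes. Of 18 listed microglia markers, 17 were measured and 13 reached the median level, with a median log2 fold change of 1.35. The control means of Trem2, C1qa, P2ry13 and Gpr34, at 6.37, 6.09, 6.05 and 5.71, lay under the median level of 6.39. These genes reached it only through the knockout arrays. Of the 17, 16 read higher in both knockout arrays than in every control array, against 12.9% of all probe sets. In limma 1 of the 17 passed the adjusted threshold, Tyrobp, an adaptor of microglial receptors. At an unadjusted p under 0.05, 15 were higher, against 5.16% of all probe sets. Their summed level on the log2 scale was 13.78 and 13.30 in the knockout arrays, against 11.81, 11.43 and 11.60 in the control arrays. The lowest of their defining genes on these arrays was Itgam, at 3.03 and 2.96 in the knockout and 2.85, 2.85 and 2.61 in the control. The median of the list lay 1.21 and 1.47 above the control mean in knockout replicates 1 and 2. Ccl6 lay 1.88 and 1.82 above its own control mean in the same arrays. The part of the microglia level in the chemokine values was not tested.

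Marker lists of other immune cells gave smaller median differences, mostly on dim probe sets. The median log2 fold change was -0.073 over 9 border macrophage markers, 0.0084 over 11 lymphocyte markers, -0.13 over 10 neutrophil and monocyte markers and 0.083 over 7 dendritic cell markers. In limma, 0 genes of these 4 lists passed the adjusted threshold. At an unadjusted limma p under 0.05, 3 were higher and 3 lower, against 5.16% and 5.99% of all probe sets. The higher ones were Stab1 (0.62) of the border macrophage list, Cd79b (0.56) of the lymphocyte list and Itgax (0.50) of the dendritic cell list. The lower ones were the neutrophil genes S100a8 (-2.46) and S100a9 (-2.32) and the dendritic cell gene Flt3 (-1.11). All 11 lymphocyte markers lay under the median level. At or above it were 3 of the 9 border macrophage markers, 1 of the 10 neutrophil and monocyte markers and 2 of the 7 dendritic cell markers. Since RMA compresses differences near background, these medians cannot show that such cells were unchanged.

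**Figure D3:**
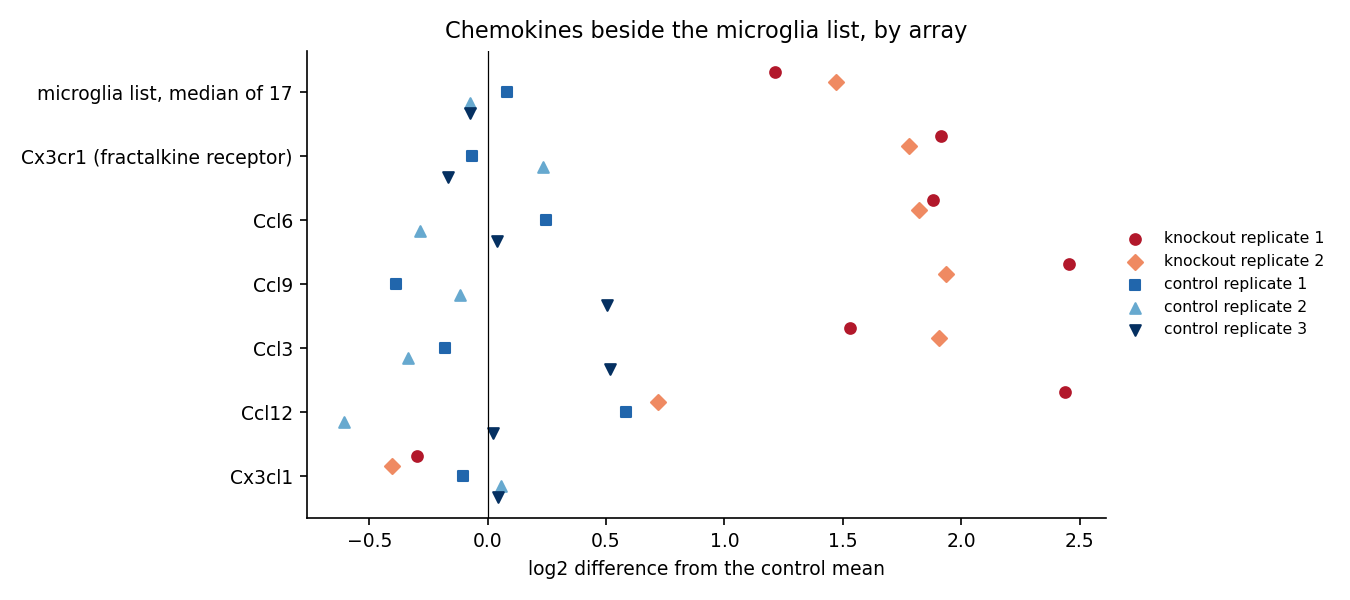
Log2 difference of each array from the control mean (horizontal axis) for the median of 17 microglia markers, for Cx3cr1, which is also one of the 17, and for the brighter probe sets of Ccl6, Ccl9, Ccl3, Ccl12 and Cx3cl1. Both knockout arrays lie to the right of every control array in each of these except Cx3cl1, where they lie to the left, and Ccl12 in knockout replicate 2 lies only 0.13 beyond the highest control.

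Cx3cl1, the membrane-bound neuronal chemokine that is shed as soluble fractalkine, was the single member lower in the knockout at an unadjusted p under 0.05. Its brightest probe set, 1415803_at, read 8.71 and 8.604 in the knockout, against 8.91, 9.07 and 9.06 in the control. The groups did not overlap. The log2 fold change was -0.35 (SE 0.11, limma unadjusted p = 0.0242, adjusted p = 0.369). Without knockout replicate 2, control replicate 2 or control replicate 3 the unadjusted p was above 0.05, at 0.0593 to 0.0882. The next probe set, 1415804_at, read 7.44 and 6.87 in the knockout and 7.44, 7.39 and 7.44 in the control, so only replicate 2 was lower there. The other 2 probe sets of the gene lay under the median level, at 3.82 and 3.57 on average, with differences of 0.10 and 0.07. The receptor gene Cx3cr1, at its bright probe set 1450020_at, read 8.99 and 8.86 in the knockout and 7.01, 7.31 and 6.91 in the control (log2 fold change 1.85, limma adjusted p = 0.0522). Ligand and receptor thus read in opposite directions, with neither past the adjusted threshold, and a second, dim Cx3cr1 probe set gave 0.28.

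Cxcl12, the ligand of Cxcr4, was measured by 2 probe sets above the median level. The brighter one, 1448823_at, read 8.10 and 8.36 in the knockout and 8.26, 8.20 and 8.65 in the control, so the groups overlapped. The other, 1417574_at, read 6.71 and 7.38 in the knockout and 7.45, 7.53 and 7.49 in the control, where both knockout arrays were lower, replicate 1 by far the more. Its log2 fold change of -0.44 (limma unadjusted p = 0.0853, adjusted p = 0.520) became -0.10 without knockout replicate 1 and -0.78 without replicate 2. The third probe set of the gene lay at 4.85 and differed by 0.01. Markers of meninges and fibroblasts, which also make Cxcl12, had a median log2 fold change of -0.52 over 10 genes, with a summed log2 level of 10.85 and 10.90 in the knockout and 11.22, 11.01 and 12.38 in the control. In control replicate 3 the median of this list lay 1.02 above the control mean, against -0.33 and -0.67 in the other controls and -0.45 and -0.71 in the knockout arrays. Markers of endothelial cells and pericytes, of the vessels that also make Cxcl12, had a median of 0.22 over 12 genes. In limma 4 of the 12 were higher and 0 lower at an unadjusted p under 0.05, against 5.16% and 5.99% of all probe sets. None of them passed the adjusted threshold. The part of either list in the Cxcl12 values was not tested.

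Cxcr4, which migrating GABAergic interneurons are known to use, was the single receptor gene of the family at or above the median level. Its level was 9.34 for knockout replicate 1 and 8.62 for replicate 2, against 8.92, 9.11 and 9.01 in the control. The knockout arrays thus lay on either side of the controls, and the log2 fold change was -0.031 with a 95% interval of -0.60 to 0.54. Replicate 1, the higher of the pair, was also the array with the higher GABAergic markers, and the part of these in the Cxcr4 value was not tested.

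Cxcl14, a CXC ligand found in interneurons and epithelia, split the knockout pair in the opposite way. Its brighter probe set, 1418457_at, read 6.18 and 7.56 in the knockout and 7.04, 6.84 and 6.87 in the control. Its log2 fold change of -0.05 became 0.64 without knockout replicate 1 and -0.73 without replicate 2. The dimmer probe set, 1418456_a_at, read 6.29 and 6.45 in the knockout and 5.99, 6.04 and 6.11 in the control (log2 fold change 0.32, limma unadjusted p = 0.0315, adjusted p = 0.394). Its unadjusted p was 0.0776 to 0.117 without knockout replicate 2, control replicate 1 or control replicate 2. The probe sets of this gene therefore disagreed in knockout replicate 1.

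**Figure D4:**
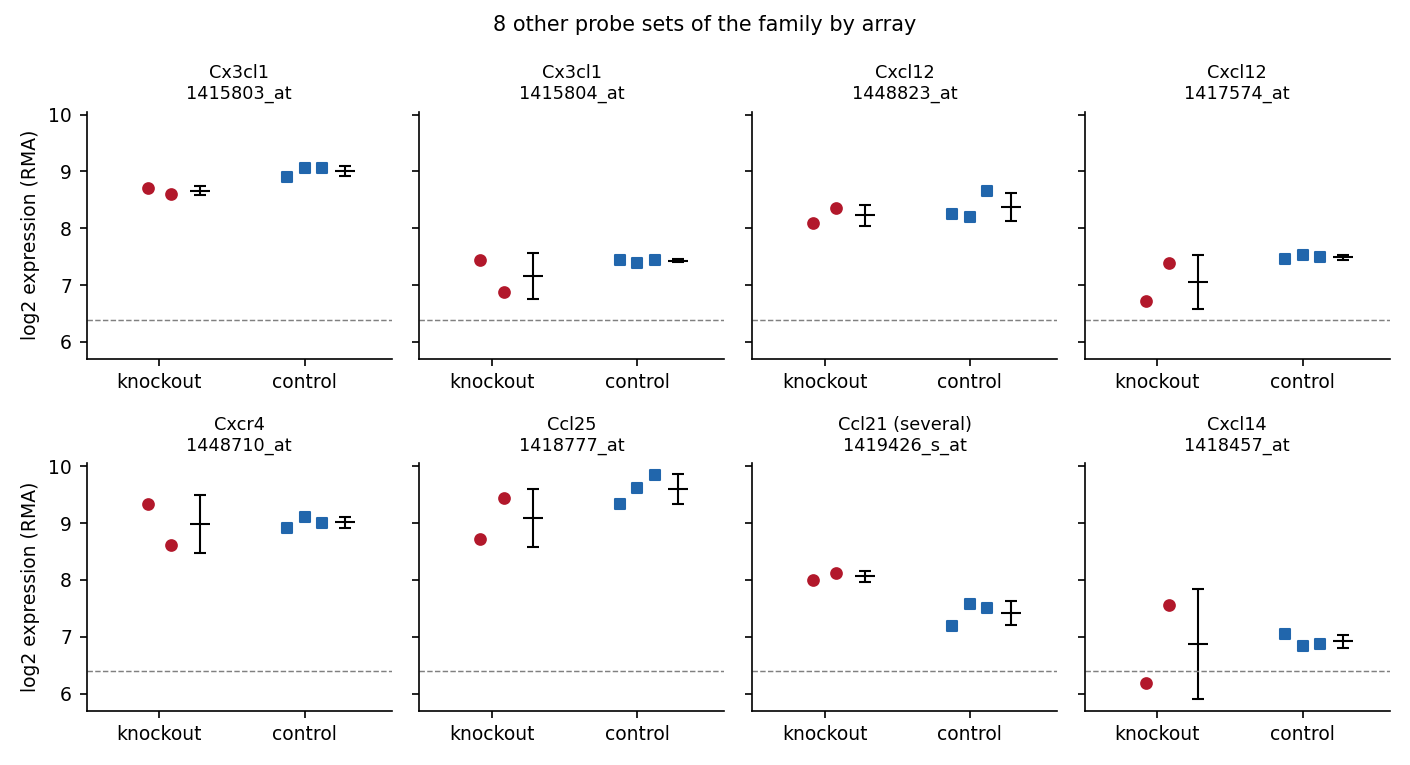
Log2 expression (vertical axis) of 8 other probe sets of the family in 2 knockout arrays (red circles) and 3 control arrays (blue squares), with the mean and SD beside each group and the median of all probe sets dashed. Cx3cl1 at 1415803_at (8.71 and 8.604 in the knockout, 8.91 to 9.07 in the control) is lower without overlap, Ccl21 is higher without overlap, and Cxcr4 and Cxcl14 at 1418457_at show knockout arrays on both sides of the controls.

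The brightest signals of the family came from probe sets of Ccl27, a ligand of Ccr10 best known from skin. The 2 probe sets shared by Ccl27a, Ccl27b and 3 further gene models read 11.78 and 12.17 in the knockout and 11.81, 11.97 and 11.57 in the control at 1430375_a_at, and 11.91 and 12.09 in the knockout against 11.81, 11.80 and 11.54 in the control at 1419188_s_at. The probe set that names Ccl27a alone read 10.12 and 10.59 in the knockout and 10.18, 10.36 and 9.97 in the control. These levels stand above those of 82.4% to 94.0% of all probe sets. None of the 3 had an unadjusted p under 0.05, with log2 fold changes from 0.18 to 0.29. The annotated span of Ccl27a overlaps that of Il11ra1, a cytokine receptor gene, and the shared signal cannot be given to 1 gene copy. The receptor gene Ccr10 read 5.65 and 5.71 in the knockout and 5.51, 5.91 and 5.77 in the control, and its span overlaps that of Cntnap1.

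The Ccl21 probe set, shared by Ccl21a, Ccl21b, Ccl21c, Ccl21d and 5 further gene models, read 7.997 and 8.124 in the knockout and 7.18, 7.58 and 7.51 in the control. Ccl21 guides lymphocytes and dendritic cells to lymph nodes through Ccr7. Both knockout arrays lay above the controls by at least 0.42, and the log2 fold change was 0.64 (SE 0.16, limma unadjusted p = 0.00781, adjusted p = 0.264). The copies cannot be told apart. Ccl19, the other ligand of Ccr7, has a probe set shared by 10 gene models, which read 5.64 and 5.95 in the knockout and 5.74, 5.50 and 5.21 in the control. Ccr7 itself read 2.97 and 3.06 in the knockout and 3.08, 2.79 and 3.23 in the control, near the floor.

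A further set of CC ligand genes had a probe set above the median level, and none had an unadjusted p under 0.05. Ccl25, a thymic and gut ligand of Ccr9, read 8.73 and 9.45 in the knockout and 9.33, 9.62 and 9.84 in the control (log2 fold change -0.51, 95% interval -1.17 to 0.14). The difference for Ccl25 was -0.15 without knockout replicate 1 and -0.87 without replicate 2 (limma unadjusted p = 0.0196, adjusted p = 0.191). Ccl17, a ligand of Ccr4, read 8.33 and 8.27 in the knockout and 8.48, 8.37 and 8.40 in the control, where both knockout arrays were slightly lower, with a log2 fold change of -0.12. Ccl28, an epithelial ligand of Ccr10, read 7.40 and 6.69 in the knockout and 7.76, 6.52 and 7.91 in the control, the widest control range of the named probe sets at 1.39. Its log2 fold change of -0.35 lay between -0.79 and -0.0025 with 1 array left out, at the extremes without control replicate 2 and without knockout replicate 2. The second probe set of Ccl25 lay at 6.16 and the other 2 of Ccl28 at 5.43 and 2.62, so the high signal of each gene rests on 1 probe set. Cxcl1, a neutrophil attractant, read 5.15 and 4.84 in the knockout and 4.67, 4.63 and 4.67 in the control at 1441855_x_at, with a log2 fold change of 0.34 (limma unadjusted p = 0.0452, adjusted p = 0.438). Without knockout replicate 1 this was 0.18 and without replicate 2 it was 0.50, and the unadjusted p was above 0.05 without knockout replicate 1 or without any 1 of the controls, at 0.0870 to 0.184. Its other 2 probe sets differed by 0.13 and 0.18 and their groups overlapped.

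In all, 14 of the 80 probe sets had a mean over the 5 arrays at or above the median level of 6.39, which by its construction 50% of all probe sets reach. They belong to Ccl27 (3 probe sets), Cx3cl1 (2), Cxcl12 (2), Ccl25, Cxcr4, Ccl17, Ccl21, Ccl28, Ccl6 and Cxcl14. The last of them inside the limit was Cxcl14 at 6.90 and the first outside was Ccl9 at 6.35. With 1 probe set a gene the median level is 8.26, and 7 of 52 genes or gene groups reached it. By role, 8 of 27 CC ligand probe sets, 5 of 28 probe sets of CXC, CX3C and XC ligands, 0 of 18 CC receptor probe sets and 1 of 7 probe sets of CXC and XC receptors were at or above 6.39.

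**Figure D5:**
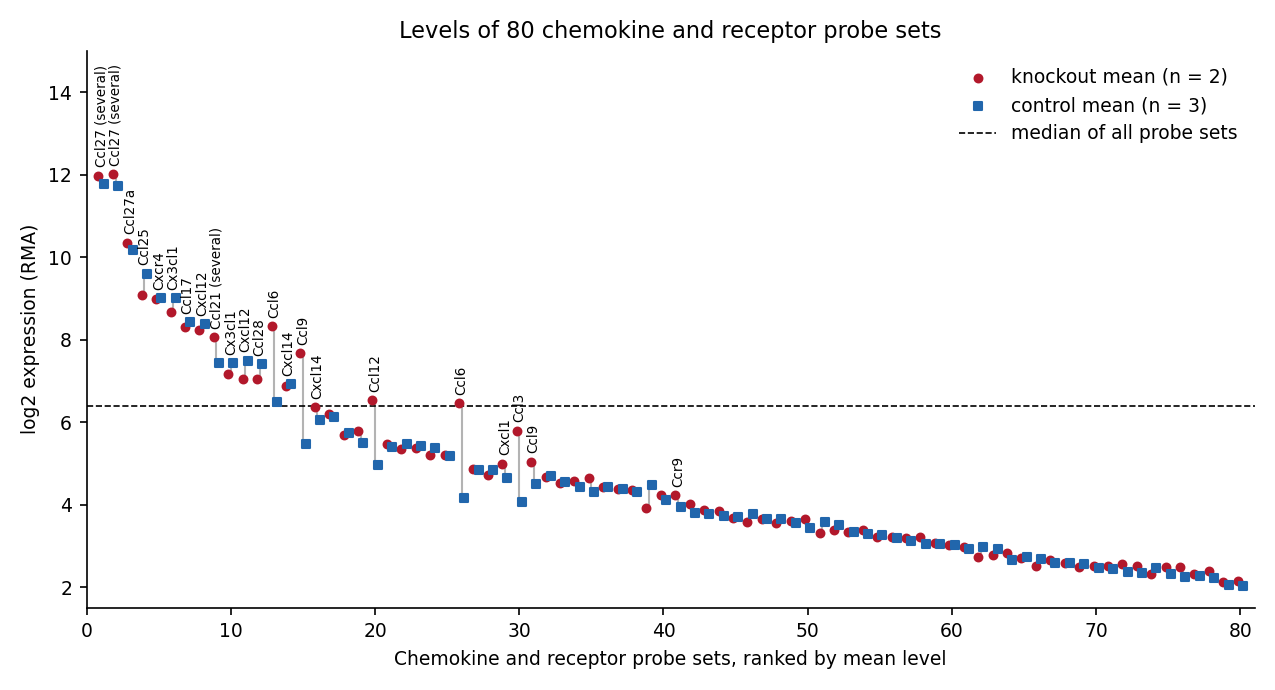
Mean log2 expression (vertical axis) of the 80 probe sets ranked by level (horizontal axis), with knockout means as red circles, control means as blue squares and the median of all probe sets dashed. A run of 14 probe sets lies at or above the line by the mean over 5 arrays, and the widest gaps between the group means are those of Ccl6, Ccl9, Ccl3 and Ccl12.

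Receptor genes were dim. Apart from Cxcr4, 24 receptor probe sets of 15 genes had mean levels from 2.08 to 5.71, and 23 of them had an unadjusted p of 0.05 or more. Ccr1, the receptor for Ccl3 and Ccl9, read 2.97 and 2.32 in the knockout and 2.60, 2.56 and 2.61 in the control at 1419609_at. Ccr2, the receptor of monocytes for Ccl2 and Ccl12, had 4 probe sets with mean levels from 2.09 to 2.58 and differences from 0.0067 to 0.074. The arrays thus gave no level above the median for the receptors of the CC ligands that read higher. Ccr9 had 5 probe sets. At 1442758_at it read 4.24 and 4.22 in the knockout and the same value of 3.94 in each control, which leaves no spread among the controls (log2 fold change 0.29, limma unadjusted p = 0.0302, adjusted p = 0.389). With any 1 array left out this unadjusted p was above 0.05, at 0.0555 to 0.0739. Another Ccr9 probe set, 1421920_a_at, gave -0.54, and the gene's 5 differences had a median of -0.07. Ccr3, Ccr4, Ccr6, Ccr8, Ccr1l1, Cxcr2, Cxcr3, Cxcr5, Cxcr6 and Xcr1 made up the rest, with differences from -0.25 to 0.24.

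The remaining ligands were at or under 6.16. They included the interferon-induced ligands Cxcl9, Cxcl10 and Cxcl11, the neutrophil attractants Cxcl2, Cxcl3 and Cxcl5, the B cell attractant Cxcl13, the lymphocyte ligands Ccl20, Ccl22 and Xcl1, the eosinophil ligands Ccl11 and Ccl24, and Cxcl15, Cxcl16 and Cxcl17. Cxcl10 read 3.32 and 3.29 in the knockout and 4.33, 3.09 and 3.29 in the control, so 1 control array stood above the rest. Over the 58 probe sets not described with values by the naming rule, log2 fold changes lay between -0.54 and 0.33, with a median of 0.017.

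Genes that handle or transmit chemokine signals showed no adjusted call. Of 38 listed, 37 were measured and 28 reached the median level. In limma 0 passed the adjusted threshold, with 8 of the 37 higher and 1 lower at an unadjusted p under 0.05. Over all probe sets these shares were 5.16% and 5.99%. The median log2 fold change was 0.088. Besides Cx3cr1, the smallest p among genes whose mean over 5 arrays reached the median level belonged to Rac2, Gnai2 and Ackr2. Rac2, which acts in the migration of blood cells, gave 1.04 (limma adjusted p = 0.0865). Gnai2, the inhibitory G protein subunit that chemokine receptors couple to, gave 0.46 (0.247). Ackr2, a scavenger receptor for CC ligands, gave 0.61 (0.374). The control means of Rac2 and Ackr2, 6.07 and 6.16, lay under the median level, so both reached it only through the knockout arrays. Vav1, under the median level, gave 1.32 (limma adjusted p = 0.0736). Rac2 read 7.16 and 7.05 in the knockout and 6.20, 5.95 and 6.06 in the control.

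Among cytokines and factors known to induce chemokines, 22 of 24 were measured, with a median of 0.11. In limma 0 passed the adjusted threshold. At an unadjusted p under 0.05, 5 of the 22 were higher and 2 lower, against 5.16% and 5.99% of all probe sets. Relb, a subunit of NF-kappaB, read 6.21 and 6.16 in the knockout and 7.004, 7.359 and 7.087 in the control (log2 fold change -0.97, limma adjusted p = 0.127). Jun gave 0.57, Stat3 0.44 and the cytokine gene Il18 0.43, with adjusted p-values from 0.265 to 0.311.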

How the data were processed

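Expression in microdissected dLGN was measured on Affymetrix arrays after amplification of total RNA with a Nugen kit, per the labels' protocols. The deposited values are log2 expression per probe set, made by the authors with RMA per the submitters' processing notes; its version is not given in the sources used here. RMA aligns the arrays' distributions and compresses differences near background.

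Groups came from the genotype labels. After 64 control probe sets were left out, 45037 were fitted with limma 3.58.1 in R 4.3.3 (genotype as the only term, two-sided, Benjamini-Hochberg over all). Platform symbols named the probe sets; 34945 had 1 gene, 932 several and 9160 none, and all 76 members with 1 gene kept their symbol in the RefSeq table of GRCm38.p6. Lists used the brightest probe set of each gene. Promoter windows were found for 36 of 49 genes. The fit was tested on simulated data.

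Members reaching the median level over 5 arrays, or with an unadjusted p under 0.05, were given with values, as were others that share a gene, receptor or chromosomal run with these, chosen after their values were seen. From lists of other pathway genes, up to 4 bright genes with the smallest p were named. Vav1, Itgam, Tyrobp, Stab1, Cd79b, Itgax, S100a8, S100a9 and Flt3 were added after their values were seen. The members, lists and motifs were chosen with earlier results of these data known. The number of arrays limits the precision. Alternatives were a replicate block, normalization, filters, priors, array weights, each array left out, 1 probe set a gene and shared probe sets left out.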

Additional observations from a re-analysis of the deposited data

Results flagged for a closer look

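A signal outside the comparison came from the arrays' quality control probe sets. For Gapdh, the log2 difference between the 3′ and the 5′ end was 2.34 in knockout replicate 1 and 0.962 in knockout replicate 2, while the control arrays had 0.774 to 1.33. Knockout replicate 1 thus stood above the top control value, at a distance larger than the whole spread of the control values. For Actb the difference was 1.91 and 0.970 in the knockout arrays and 0.620 to 1.45 in the control arrays, and knockout replicate 1 stood out by less than that spread.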

How the results depend on the processing

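With the replicate number as a block, 0 of the 80 probe sets passed the adjusted threshold and 9 had an unadjusted p under 0.05 (11.2%, against 11% of all), against 11 without it; over all probe sets there were 0 adjusted calls, against 33. Nothing in the labels says that equal numbers pair the pools. Deviations from the group means correlated by 0.15 and 0.21 between same-numbered arrays, and by -0.21 and -0.15 between knockout and control arrays numbered 1 and 2 crosswise. The deviations of the 2 knockout arrays mirror each other by construction, so these values cannot show whether the pools are paired. Adjusted calls were 1 with dim probe sets left out, 1 with an intensity trend and 1 with 1 probe set a gene (each time Ccl6), 2 at an adjusted p of 0.10, and 0 with each array left out in turn. Over all probe sets the adjusted calls, 33, were 98 with dim probe sets left out, 100 with the trend, 75 with 1 probe set a gene, 19 with array weights and 0 with each array left out. Unadjusted calls among the members were 3 of 14 with dim probe sets left out (21.4%, against 14.5% of all tested), 7 of 52 with 1 probe set a gene (13.5%, against 12.8%) and 8 to 13 with an array left out (10% to 16.2%, against 8.2% to 18.6%). The 13, without knockout replicate 2, were 16.2% of the members and lay below the 18.6% of all probe sets. The members' median, 0.041, was 0.024 after a further quantile normalization, -0.082 with dim probe sets left out, 0.030 with array weights, 0.00084 with 1 probe set a gene, 0.017 without shared probe sets and 0.034 to 0.051 with an array left out. The number at or above the level, 14, was 39 at the first quartile, 7 with 1 probe set a gene and 14 to 15 with an array left out. Of 22 named probe sets, 16 kept their direction under every alternative that could be run, among them all of Ccl6, Ccl9, Ccl3 and Ccl12. The sign turned when 1 array was left out for the other 6, whose log2 fold changes then ranged from -0.0018 to 0.39 (Ccl27 at 1430375_a_at, lowest without knockout replicate 2), -0.053 to 0.42 (Ccl27a, the same), -0.39 to 0.33 (Cxcr4, highest without knockout replicate 2, and 0.016 without control replicate 2), -0.56 to 0.016 (Cx3cl1 at 1415804_at, highest without knockout replicate 2), -0.73 to 0.64 (Cxcl14, highest without knockout replicate 1, and 0.015 without control replicate 1) and -0.27 to 0.00070 (Cxcl12 at 1448823_at, highest without control replicate 3, and 0.00070 with the replicate block). The cause was not tested. Fewer probe sets were adjusted over with dim ones left out (22519) or 1 kept a gene (18828), while the intensity trend kept all 45037. Where 1 knockout array was left out, the remaining one was assumed to vary like the controls.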
